A study of Homo sapiens with 8 samples.

Results

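The genes described here are the heat shock proteins, their co-chaperones and 2 heat shock factors, chosen by name alone. A gene belonged if its symbol began with DNAJA, DNAJB, DNAJC, HSPA, HSPB, HSP90, HSPD1, HSPE1 or HSPH1, with BAG or CCT followed by a digit, or was CRYAA, CRYAB, HSF1 or HSF2. This gave 101 genes with 157 probes, among 31426 gene symbols and 47322 probes on the array. Where a gene had several probes, the brightest one on average stands for it. There were 10 small heat shock proteins, 46 J proteins (HSP40), 15 members of the HSP70 family by name, 1 HSP110 (HSPH1), 7 HSP90 genes, 2 mitochondrial chaperonins, 11 CCT genes, 5 BAG proteins and 2 heat shock factors. The remaining 2, HSPBAP1 and HSPBP1, encode proteins that bind heat shock proteins, and 9 of the 101 are annotated as pseudogenes. A probe counted as detected at a detection p under 0.05, and 69 members were detected on all 8 arrays, 19 on some arrays and 13 on none. The question was whether other chaperones changed along with CRYAB, whose fall in SH-EP2 cells after TRPM7 shRNA was known when the genes were chosen.

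RNA was taken from SH-SY5Y cells, a neuroblastic human neuroblastoma line, and from SH-EP2 cells, an epithelial-like one, both subclones of the SK-N-SH line. Each line had been stably transduced with a lentivirus that carried a TRPM7 shRNA or a scrambled shRNA as control. TRPM7 is an ion channel with a kinase domain. Each of the 4 groups (SH-EP2 control, SH-EP2 TRPM7 shRNA, SH-SY5Y control and SH-SY5Y TRPM7 shRNA) had 2 arrays of samples that the methods call prepared in duplicate, without saying whether from separate cultures, so p-values measure the spread between these arrays, which may be technical.

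Chaperones bind unfolded or partly folded proteins and help them to fold, to assemble or to be degraded. HSP70 proteins work in a cycle driven by ATP that J proteins start and that exchange factors such as BAG and HSP110 proteins reset, HSP90 acts late in folding, CCT and HSPD1 with HSPE1 form closed folding chambers, and small heat shock proteins hold unfolded proteins without ATP. When proteins unfold in the cytosol, heat shock factors bind heat shock elements in promoters and switch on the inducible genes, whereas unfolded proteins in the endoplasmic reticulum act through XBP1, ATF4 and related factors.

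Across the whole table, median signals lay between 104.7 and 119.9 per array, and 19331 to 20904 probes were detected. The single TRPM7 probe was detected on 0 of 8 arrays, with log2 intensities from 2.46 to 3.02, so the arrays do not check the knockdown. Of 8 noradrenergic markers, 7 were lower in SH-EP2 than in SH-SY5Y control cells, and of 8 mesenchymal markers 7 were higher, with VIM lower. All differences below are log2 differences of quantile normalized intensities. They were tested with limma's two-sided moderated test in 1 fit of the 4 groups. The p-values were adjusted by the Benjamini-Hochberg method, counting every one of the 47322 probes, and a gene passed at an adjusted p under 0.05.

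In SH-EP2 cells, few chaperones changed with CRYAB. TRPM7 shRNA lowered CRYAB and HSPBL2, raised DNAJC12 and HSPA4L, and left the other members short of the threshold. These 4 are 3.96% of the members, beside 3.67% of all symbols (1.82% higher and 1.85% lower). Since CRYAB prompted the question, the count that bears on it is that of the others, 3 of 100 (3%). Among genes detected on every SH-EP2 array, 3 of 72 members passed (4.17%), beside 8.05% of all such symbols. The median difference of the 101 members was 0.00226, and that of all symbols was 0.0103. At an unadjusted p under 0.05, 16 members (15.8%) and 14% of all symbols differed, 8 members in each direction. When the SH-EP2 arrays were normalized and fitted on their own, 12 members (11.9%) and 6.63% of all symbols passed, the members being these 4 with BAG3, HSP90AB1 and HSPD1 higher and DNAJB9, DNAJB11, DNAJB13, HSPB1 and HSPB3 lower.

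**Figure D1:**
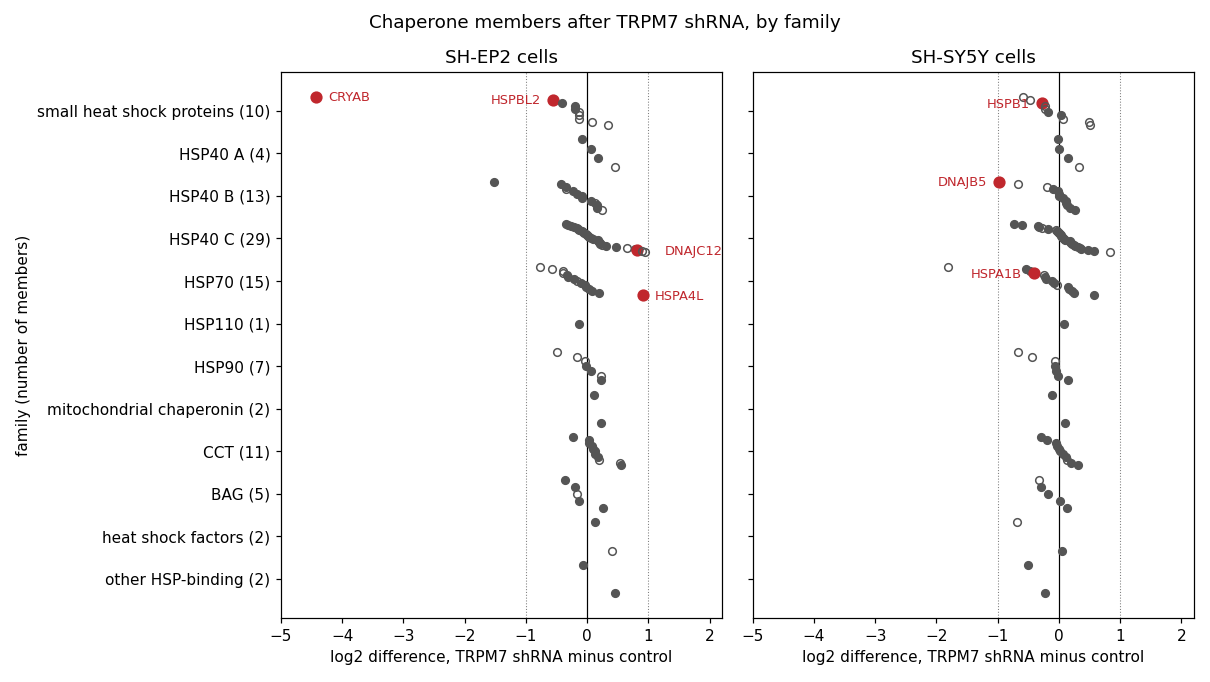
Log2 difference between TRPM7 shRNA and control arrays (horizontal axis) for each of the 101 members, grouped by family (vertical axis), in SH-EP2 cells (left) and SH-SY5Y cells (right). Red points passed an adjusted p under 0.05, filled grey points were detected on every array of that line, open points were not, and dotted lines mark a 2-fold difference. CRYAB lies at -4.43 in SH-EP2 cells, far from the other 100 members, most of which cluster around 0 in both lines.

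CRYAB encodes alpha-B-crystallin, a small heat shock protein of lens and muscle that many stressed or tumor cells also make. Its log2 intensities were 7.59 and 7.17 on the SH-EP2 control arrays and 2.93 and 2.97 on the TRPM7 shRNA arrays. The SH-SY5Y arrays read 2.57 and 3.11 in control cells and 2.35 and 2.15 in TRPM7 shRNA cells. The gene was detected on both SH-EP2 control arrays and on 0 of the other 6, so that after TRPM7 shRNA, as in SH-SY5Y cells, it was not above background. The fitted difference was -4.43 (95% interval -5.27 to -3.59, adjusted p = 1.2e-06). Measured against the dimmest detected probes of the TRPM7 shRNA arrays it was at least 18.5-fold lower. That size holds under the RMA background model alone: the difference was -2.83 with neqc, -1.68 with normexp and -1.26 with no background correction, and passed in each case (adjusted p from 4.03e-12 to 0.0479 over all 19 alternatives). HSPB2, the neighbouring gene and also a small heat shock protein, was detected on 0 of 8 arrays.

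No other small heat shock protein came near the size of the fall in CRYAB. HSPB1 (HSP27), the most widely expressed member, had intensities of 14.02 and 13.95 in control and of 13.82 and 13.75 in TRPM7 shRNA cells, which do not overlap but differed by -0.20 (adjusted p = 0.109). HSPB3, a small heat shock protein of muscle, read 8.45 and 8.42 against 7.97 and 8.07, a difference of -0.42 (95% interval -1.04 to 0.20, adjusted p = 0.648). HSPB8, the partner of BAG3 in the disposal of misfolded proteins, read 7.67 and 7.65 against 7.48 and 7.43 (-0.21, 95% interval -0.88 to 0.47, adjusted p = 0.884). For both HSPB3 and HSPB8 the control arrays were the brighter ones, by less than the fit can call. HSPBL2, a processed copy of HSPB1 that RefSeq lists as the pseudogene HSPB1P1, passed: it read 10.59 and 10.40 against 9.94 and 9.95, and fell by 0.55 (adjusted p = 0.00555). Its probe may also bind HSPB1 RNA, which cannot be told apart here. The HSPBL2 call was lost without an intensity trend in eBayes (adjusted p = 0.362) and with per-probe tests without eBayes (adjusted p = 0.258). The call was lost when SH-EP2 control replicate 1, TRPM7 shRNA replicate 1 or TRPM7 shRNA replicate 2 was left out, with differences from -0.46 to -0.65 over the arrays left out. CRYAA, HSPB6, HSPB7 and HSPB9 were detected on at most 1 array each.

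**Figure D2:**
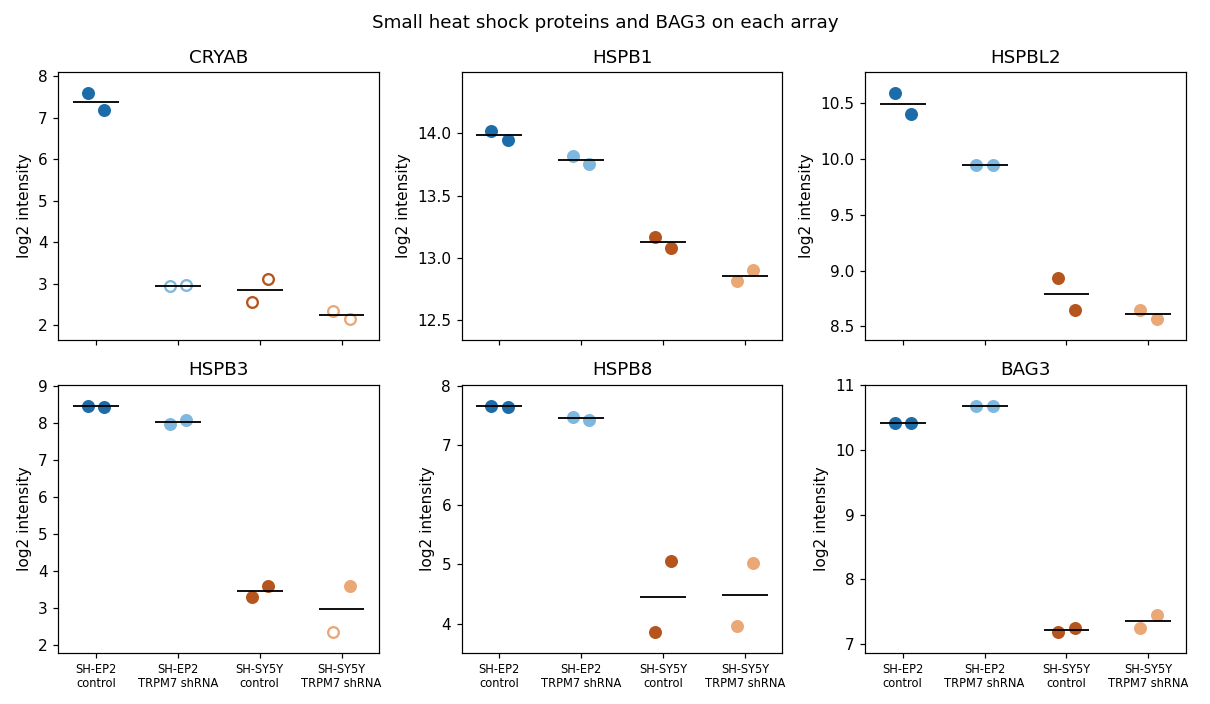
Log2 intensity (vertical axis, a scale for each gene) of 5 small heat shock proteins and of BAG3 on each of the 8 arrays, 2 per group (horizontal axis). Points are arrays, open where the probe was not detected, and bars are group means. CRYAB stands above background on the 2 SH-EP2 control arrays alone, while HSPB3, HSPB8 and BAG3 remain high on all 4 SH-EP2 arrays.

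Among the 46 J proteins, which recruit HSP70 to its clients, DNAJC12 rose in SH-EP2 cells. DNAJC12 assists the folding of the aromatic amino acid hydroxylases, tyrosine hydroxylase among them. It read 8.02 and 8.09 in control and 8.91 and 8.83 in TRPM7 shRNA cells, an increase of 0.81 (95% interval 0.60 to 1.03, adjusted p = 5.82e-05), or 1.76-fold. This call was lost without an intensity trend in eBayes (adjusted p = 0.129). A pair of further DNAJC12 probes rose by 0.88 (adjusted p = 4.1e-05) and 0.76 (adjusted p = 0.00109), and the dimmest one differed by 0.33 (adjusted p = 0.709). DNAJB13, a J protein of the ciliary axoneme, gave the lowest value of a J protein: 5.12 and 5.34 in control against 3.86 and 3.55 in TRPM7 shRNA cells, a difference of -1.52 (95% interval -2.49 to -0.56) that did not pass (adjusted p = 0.0931). It passed in 6 of 19 alternatives, the 3 other background settings, the fit of SH-EP2 arrays alone, the filter on detection and the mean over its probes, with values from -1.69 to -0.26 and adjusted p from 0.00809 to 0.407 over all 19. The other 44 J proteins lay between -0.43 (DNAJB9) and 0.94 (DNAJC2). Of the 46, 5 had an unadjusted p under 0.05, beside 14% of all symbols.

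HSPA4L was the member of the HSP70 family that rose. Despite its symbol it belongs with the HSP110 proteins, which release ADP from HSP70. The control arrays read 6.18 and 6.27 and the TRPM7 shRNA arrays 7.19 and 7.08, an increase of 0.91 (95% interval 0.56 to 1.26, adjusted p = 0.00298), or 1.88-fold. This call was lost without an intensity trend in eBayes (adjusted p = 0.106) and with per-probe tests without eBayes (adjusted p = 0.0505). Without TRPM7 shRNA replicate 1 the increase was no longer called, and 2 members (CRYAB and DNAJC12) passed in place of 4. HSPH1, the HSP110 protein proper, read 11.04 and 11.27 against 10.98 and 11.06 (-0.13, adjusted p = 0.574). HSPA8, the constitutive HSP70 of the cytosol, differed by -0.10 (adjusted p = 0.555).

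None of the 12 heat-inducible members passed in SH-EP2 cells. This list holds HSPA1A, HSPA1B, HSPA6, HSPA8, HSP90AA1, HSP90AB1, HSPH1, DNAJB1, HSPB1, HSPD1, HSPE1 and BAG3. Heat shock factors can drive these genes, but some, such as HSPA8 and HSP90AB1, are mainly constitutive. At an unadjusted p under 0.05, 5 of the 12 (and 14% of all symbols) differed, 3 higher (HSP90AB1, HSPD1 and BAG3) and 2 lower (HSPA1A and HSPB1). All 10 that were detected on every SH-EP2 array had 95% intervals within a 2-fold difference in either direction. HSPA1B, a stress-induced HSP70, read 8.81 and 8.996 against 8.94 and 8.79, so that its arrays overlapped. DNAJB1, the J protein induced with it, read 8.77 and 8.79 against 8.78 and 8.91. HSPA1A was not detected on any SH-EP2 array and HSPA6 on 1 array of each SH-EP2 group. Of the heat shock factors, HSF2 differed by 0.12 (adjusted p = 0.812), and HSF1 was detected on 1 of the 8 arrays, which leaves its level unmeasured.

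**Figure D3:**
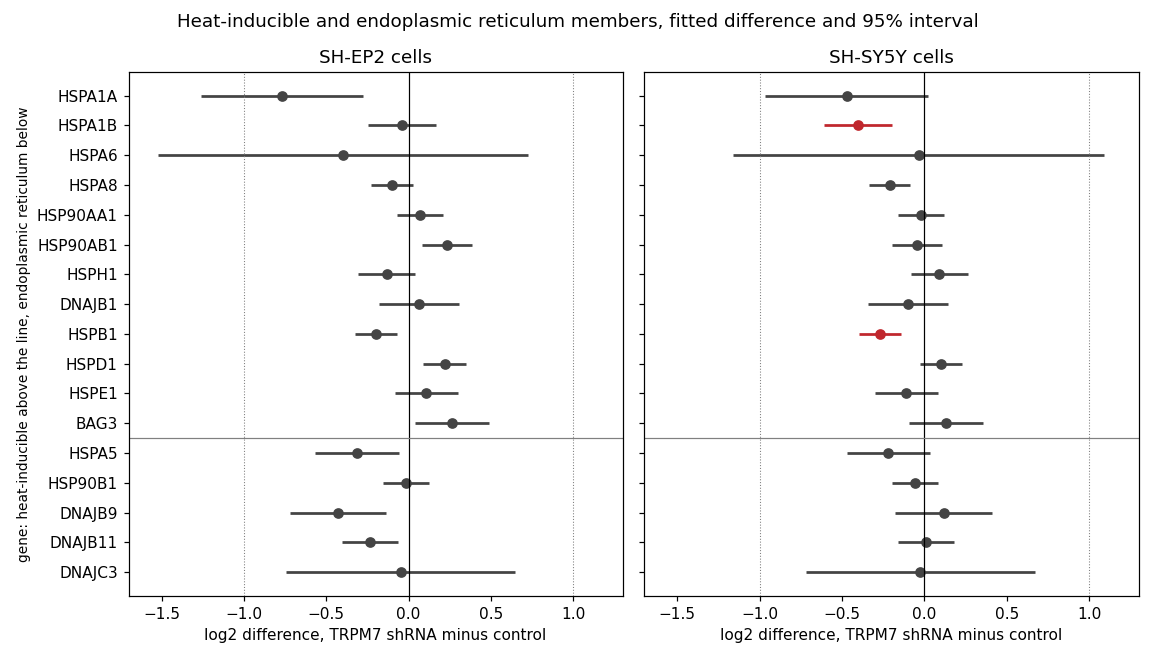
Fitted log2 difference between TRPM7 shRNA and control (points) with its 95% interval (lines) for the 12 heat-inducible members (above the grey line) and the 5 members of the endoplasmic reticulum (below it), in SH-EP2 (left) and SH-SY5Y cells (right). Red marks an adjusted p under 0.05, dotted lines mark a 2-fold difference, and HSPA1A in SH-EP2 cells and HSPA6 in both lines are near background. HSPA1B and HSPB1 in SH-SY5Y cells are the 2 that passed.

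The chaperones of the endoplasmic reticulum did not pass either, although several read lower. HSPA5 (BiP), the HSP70 of this compartment, had intensities of 9.47 and 9.57 in control and 9.03 and 9.38 in TRPM7 shRNA cells (-0.31, adjusted p = 0.24). DNAJB9, its J protein, read 8.38 and 8.59 against 7.96 and 8.16 (-0.43, adjusted p = 0.134), and DNAJB11, another, 11.38 and 11.49 against 11.20 and 11.21 (-0.23, adjusted p = 0.159). In these 3 genes the groups did not overlap, as in 51 of 101 members (50.5%) and 44.3% of all symbols. HSP90B1 (GRP94) and DNAJC3 differed by -0.02 and -0.05. Of 17 further genes of endoplasmic reticulum folding and the unfolded protein response on the array, 3 fell and 0 rose, with 14 short of the threshold. Of all symbols, 1.85% fell and 1.82% rose. Among symbols detected on every SH-EP2 array, 8.05% passed in either direction. The transcription factor XBP1 read 11.06 and 10.98 against 10.51 and 10.39 and fell by 0.57 (adjusted p = 0.000666). ATF4 fell by 0.36 (adjusted p = 0.00717) and SERPINH1, the collagen chaperone HSP47, by 0.34 (adjusted p = 0.0495).

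No gene of the folding chambers or of HSP90 passed in SH-EP2 cells. The 11 CCT genes, most of them subunits of the cytosolic chaperonin for actin and tubulin, lay between -0.24 and 0.55. Of these, 1 had an unadjusted p under 0.05, beside 14% of all symbols. HSPD1 (HSP60) read 12.45 and 12.48 in control and 12.71 and 12.67 in TRPM7 shRNA cells, which do not overlap, but the difference of 0.22 did not pass (adjusted p = 0.065, and -0.12 with its probes averaged), nor did that of 0.11 in its partner HSPE1 (adjusted p = 0.728). HSP90AA1 and HSP90AB1, the cytosolic HSP90 genes, differed by 0.07 and 0.23 (adjusted p = 0.768 and 0.108). BAG3, a nucleotide exchange factor of HSP70 that heat induces, read 10.41 on both control arrays and 10.68 and 10.67 after TRPM7 shRNA (0.26, adjusted p = 0.278). Of 25 cytosolic co-chaperones outside the family names, such as STIP1, CDC37 and the prefoldins, 0 passed. Among 10 mitochondrial folding and protease genes TRAP1, the HSP90 of mitochondria, rose by 0.41 (adjusted p = 0.0406) and the protease LONP1 fell by 0.50 (adjusted p = 0.00561). Of all symbols, 3.67% passed in SH-EP2 cells.

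The intervals give the size of change that could be seen. Of the 72 members detected on all 4 SH-EP2 arrays, 64 had a 95% interval within a 2-fold difference in either direction (88.9%, beside 81.7% of all such symbols), and in 69 a 2-fold fall lay outside the interval. The 3 in which it did not were DNAJB13, HSPA7 and HSPB3. The median half-width of the interval was 0.29 on the log2 scale. For members that were not detected, a change cannot be seen at this signal.

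In SH-SY5Y cells, 3 chaperones fell after TRPM7 shRNA and 0 rose. DNAJB5, HSPA1B and HSPB1 are 2.97% of the members, beside 2.57% of all symbols, of which 1.57% were lower and 0.999% higher. At an unadjusted p under 0.05, 7 members were higher and 9 lower, 15.8% of the members beside 12.7% of all symbols. The median difference was 0.00348 over the members and 0.00341 over all symbols. Among genes detected on every SH-SY5Y array, 3 of 74 members passed (4.05%), beside 5.53% of such symbols, and 65 of the 74 had an interval within a 2-fold difference. The arrays of the groups did not overlap in 46 members (45.5%) and in 40.5% of all symbols.

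HSPA1B, which with the nearby HSPA1A encodes the main stress-induced HSP70, read 10.54 and 10.55 in control and 10.17 and 10.12 in TRPM7 shRNA cells. The groups were well apart, with a fall of 0.40 (95% interval -0.61 to -0.19, adjusted p = 0.0371). HSPA1A read 9.50 and 9.25 against 8.85 and 8.95 (-0.47, adjusted p = 0.474), also without overlap. Because the 2 genes are near-identical copies, their probes may share signal and the change of either one is uncertain. HSPB1 read 13.17 and 13.08 against 12.81 and 12.90 and fell by 0.27 (95% interval -0.40 to -0.14, adjusted p = 0.02). DNAJB5, a J protein of the same class as DNAJB1, read 6.55 and 6.38 against 5.49 and 5.49 and fell by 0.98 (95% interval -1.49 to -0.47, adjusted p = 0.0399), or 1.97-fold. Of its other probes, 1 was detected on 4 arrays and differed by -1.52 (adjusted p = 0.146), and the other two were not detected.

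These 3 calls lie close to the threshold. With SH-SY5Y control replicate 1 left out, 3 members passed but 0 of these 3. Without control replicate 2, HSPB1 alone passed, and without TRPM7 shRNA replicate 1, 0 passed (15 at an unadjusted p under 0.05). Without TRPM7 shRNA replicate 2, 3 passed, HSPB1 among them. Scaling each array to its median, which moved the median of the symbols detected on all arrays from 0.01 to 0.15 in this line, left 1 member called (CCT6P1, higher) and none of the 3.

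**Figure D4:**
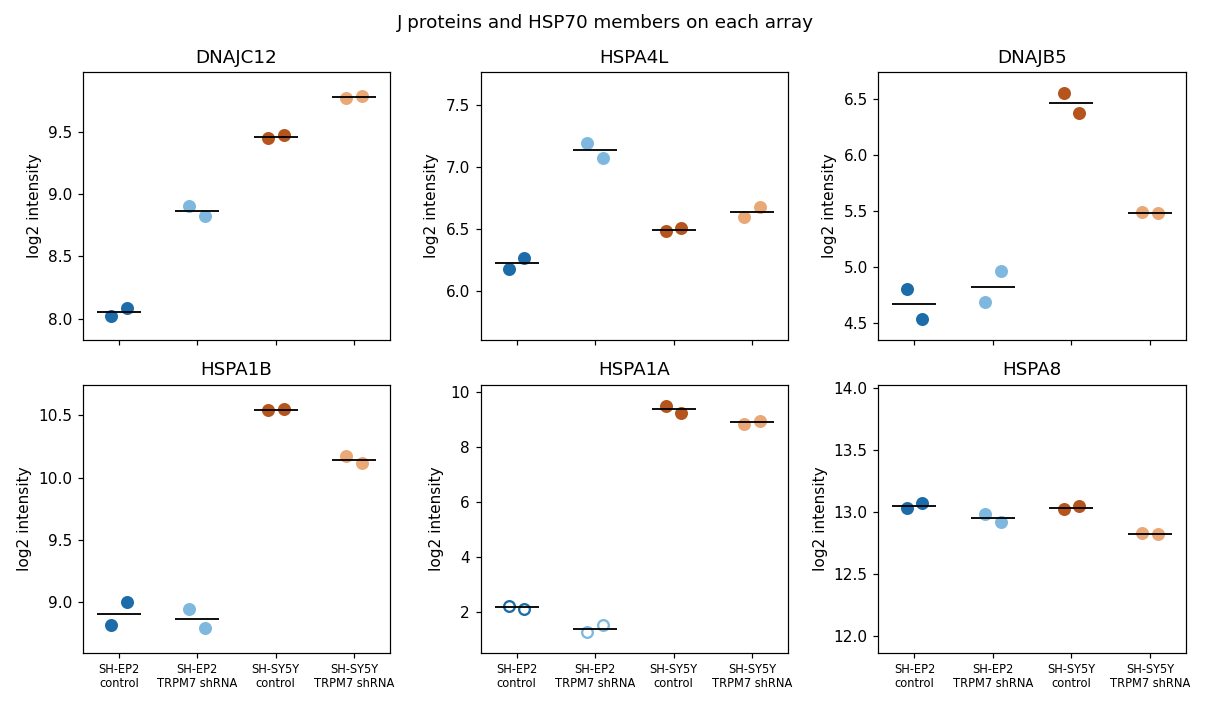
Log2 intensity (vertical axis, a scale for each gene) of the J proteins DNAJC12 and DNAJB5 and of 4 genes named as HSP70 members on each of the 8 arrays, 2 per group (horizontal axis). Points are arrays, open where the probe was not detected, and bars are group means. DNAJC12 and HSPA4L are higher on the SH-EP2 TRPM7 shRNA arrays than on their controls, DNAJB5 and HSPA1B lower on the SH-SY5Y TRPM7 shRNA arrays, and HSPA1A is detected on the SH-SY5Y arrays alone.

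The promoters of the members were searched for the letters of heat shock elements, the sequences that heat shock factors bind. A heat shock element is a run of the unit GAA and its reverse, TTC, and the 250 bases before the transcription start were searched for 3 units (TTCNNGAANNTTC or GAANNTTCNNGAA) and for 2 units (GAANNTTC, or TTCNNGAA). Each form reads the same on the other strand, or the pair does, and a match of 3 units contains matches of both 2-unit forms. RefSeq promoters of GRCh38.p14 were at hand for 81 of the 101 members. A match of 3 units lay in 6 of the 81 (7.41%) and in 0.557% of 27305 genes, and GAANNTTC lay in 18 of the 81 (22.2%) and in 7.05% of genes. TTCNNGAA lay in 12 of the 81 (14.8%) and in 8.12% of genes. Of the 12 heat-inducible members, 5 had 3 units and 9 had GAANNTTC. Of the 3 members called in SH-SY5Y cells, HSPA1B and HSPB1 had GAANNTTC. DNAJB5 had no match of any form, and its sequence is not shown. Of the 2 SH-EP2 calls with a promoter, 0 had GAANNTTC and 1 had TTCNNGAA. Of 46 members called between the control groups, 11 had GAANNTTC (23.9%). The sequences below are those of HSPA1B and HSPB1, the inducible genes that fell in SH-SY5Y TRPM7 shRNA cells, of HSPA8 and of the copy HSPA1A, whose lower readings there did not pass, and of HSPB8 and BAG3, partner genes that were higher in SH-EP2 cells. They run 5′ to 3′ on the strand of the gene up to the base before the start, with matches of 2 or 3 units in capitals. HSPA8 lies on the minus strand and the others on the plus strand.
HSPA1A, chr6:31815293-31815542: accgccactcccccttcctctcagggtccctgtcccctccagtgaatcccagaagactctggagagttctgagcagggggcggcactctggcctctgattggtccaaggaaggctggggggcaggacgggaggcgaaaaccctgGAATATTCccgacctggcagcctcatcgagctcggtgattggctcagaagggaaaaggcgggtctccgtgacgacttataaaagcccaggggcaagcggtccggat
HSPA1B, chr6:31827488-31827737: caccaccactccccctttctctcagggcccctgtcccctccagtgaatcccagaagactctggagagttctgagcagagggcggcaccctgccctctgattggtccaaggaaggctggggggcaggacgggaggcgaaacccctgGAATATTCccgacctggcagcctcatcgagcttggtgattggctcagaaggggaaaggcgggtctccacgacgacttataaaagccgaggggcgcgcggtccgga
HSPA8, chr11:123062137-123062386: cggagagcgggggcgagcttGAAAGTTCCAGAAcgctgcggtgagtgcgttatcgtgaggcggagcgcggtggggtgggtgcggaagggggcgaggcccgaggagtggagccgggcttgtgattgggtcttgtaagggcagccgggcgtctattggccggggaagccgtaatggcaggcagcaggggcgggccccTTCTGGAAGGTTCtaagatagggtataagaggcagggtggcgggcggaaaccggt
HSPB1, chr7:76302423-76302672: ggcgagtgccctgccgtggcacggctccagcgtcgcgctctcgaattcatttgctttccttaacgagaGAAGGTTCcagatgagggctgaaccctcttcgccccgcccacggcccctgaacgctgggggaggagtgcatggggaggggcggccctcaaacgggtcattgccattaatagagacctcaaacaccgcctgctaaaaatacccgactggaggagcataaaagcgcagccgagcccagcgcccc
HSPB8, chr12:119178681-119178930: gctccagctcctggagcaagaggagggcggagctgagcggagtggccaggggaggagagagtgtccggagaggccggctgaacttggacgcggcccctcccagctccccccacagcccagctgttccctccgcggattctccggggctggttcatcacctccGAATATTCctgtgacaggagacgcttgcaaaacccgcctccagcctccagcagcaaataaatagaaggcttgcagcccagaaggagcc
BAG3, chr10:119651130-119651379: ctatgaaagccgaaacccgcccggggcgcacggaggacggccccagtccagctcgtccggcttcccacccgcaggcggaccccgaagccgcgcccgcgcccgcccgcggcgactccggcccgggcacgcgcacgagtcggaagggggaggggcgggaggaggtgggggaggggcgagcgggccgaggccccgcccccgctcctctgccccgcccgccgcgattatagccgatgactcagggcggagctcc
HSPA1A and HSPA1B were identical at 235 of 251 aligned positions (93.6%), and both carry the 8 letters GAATATTC, which HSPB8 carries too. HSPA8 holds 2 matches of 3 units. BAG3 had no match of these forms in this window. A match describes the letters of the reference sequence, and binding was not measured on these arrays.

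No other member passed in SH-SY5Y cells. HSPA8 read 13.02 and 13.05 in control and 12.83 and 12.82 in TRPM7 shRNA cells, apart from each other but short of the threshold (-0.21, adjusted p = 0.0814), and its second probe differed by -0.05. HSP90AA1, HSP90AB1, HSPH1 and DNAJB1 differed by between -0.10 and 0.09, and HSPD1 and HSPE1 by 0.10 and -0.11. None of the 5 endoplasmic reticulum members had even an unadjusted p under 0.05, with differences from -0.22 (HSPA5) to 0.12 (DNAJB9). CCT genes lay between -0.29 and 0.31. HSPA7, an HSP70 pseudogene, gave the lowest value, 3.87 and 5.18 against 2.90 and 2.54 near background (-1.81, adjusted p = 0.0712). Outside the family names, AHSA1, an activator of HSP90, fell by 0.35 (adjusted p = 0.0398) and was the single one of 25 cytosolic co-chaperones to pass. SERPINH1 fell by 0.54 (adjusted p = 0.00197), as it had in SH-EP2 cells. None of the 10 mitochondrial genes passed, and TRAP1 differed by 0.26 (adjusted p = 0.333). Of all symbols, 2.57% passed in SH-SY5Y cells.

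Whether the 2 lines responded differently was tested directly, as the difference of their TRPM7 shRNA effects. CRYAB passed (-3.84, 95% interval -5.03 to -2.65, adjusted p = 0.000617), 1 of 101 members (0.99%) beside 1.78% of all symbols (0.993% higher and 0.786% lower). Since its fall in SH-EP2 cells prompted the question, the count that bears on it is again that of the others, 0 of 100. Of the 69 members detected on all 8 arrays 0 passed, beside 3.79% of such symbols. CRYAB was undetected in SH-SY5Y cells before and after TRPM7 shRNA, so a fall there could not have been seen. For the 2 genes that rose in SH-EP2 cells the difference did not pass. DNAJC12 had effects of 0.81 with the SH-EP2 arrays and 0.32 with the SH-SY5Y arrays (difference 0.50, 95% interval 0.19 to 0.80, adjusted p = 0.12), and HSPA4L had effects of 0.91 and 0.14 (difference 0.77, 95% interval 0.27 to 1.27, adjusted p = 0.162). Nor did it for the 3 that fell in SH-SY5Y cells. DNAJB5 differed by 1.13 between the lines (adjusted p = 0.151), HSPA1B by 0.36 (adjusted p = 0.332) and HSPB1 by 0.08 (95% interval -0.11 to 0.26, adjusted p = 0.844). Missing the threshold does not show that the lines act alike, and the intervals of DNAJC12, HSPA4L, DNAJB5 and HSPA1B leave out 0. At an unadjusted p under 0.05, 18 members differed (17.8%), beside 11.4% of all symbols.

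Between the 2 control groups the chaperones differed far more than after TRPM7 shRNA. Of the 101 members, 24 were higher and 27 lower in SH-EP2 cells, 50.5% beside 30.1% of all symbols (14.2% higher and 15.9% lower). Without CRYAB, 50 of 100 members passed (50%). Among genes detected on all 4 control arrays the shares were alike, 43 of 71 members (60.6%) and 60.7% of symbols, while 71 of 101 members and 11688 of 31426 symbols were detected on all 4. This comparison uses the same SH-EP2 control arrays as that of CRYAB above. The TRPM7 shRNA arrays of the 2 lines are other arrays, and there 47 members passed (46.5%, beside 29.9% of all symbols). Of these, 38 passed in both settings, 74.5% of the control calls and 80.9% of the TRPM7 shRNA calls, all with the same sign. The overlap over all symbols was not counted, so whether these shares are particular to chaperones was not tested.

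**Figure D5:**
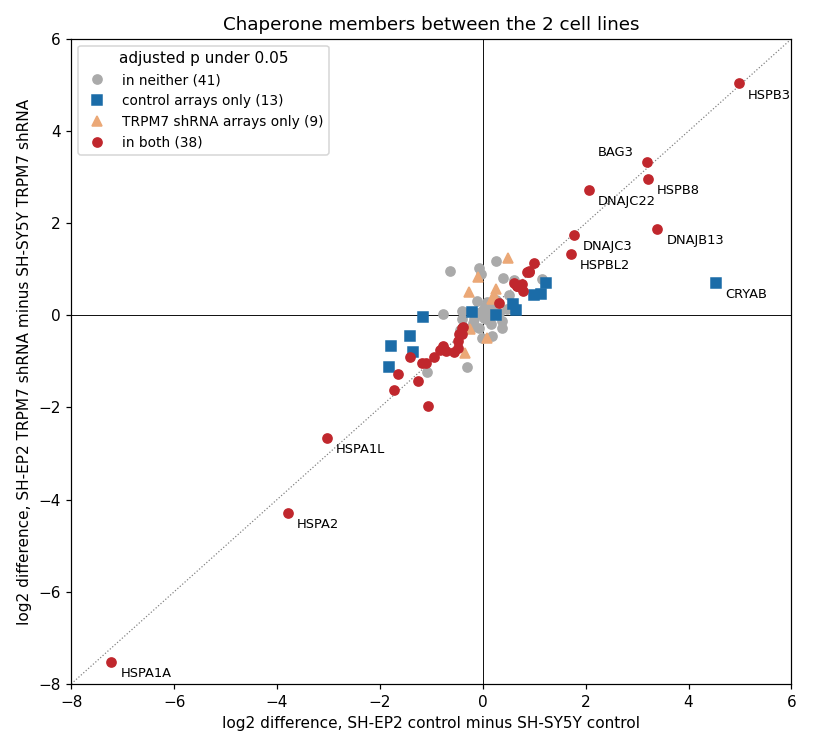
Log2 difference between SH-EP2 and SH-SY5Y cells for each of the 101 members, on control arrays (horizontal axis) and on TRPM7 shRNA arrays (vertical axis), with the line of equal values dotted. Colour and shape give where a member passed an adjusted p under 0.05, with 38 members in both, 13 on control arrays alone, 9 on TRPM7 shRNA arrays alone and 41 in neither. HSPB3, HSPB8 and BAG3 lie high and HSPA1A, HSPA2 and HSPA1L low on both axes, while CRYAB is high on the control axis and near 0 on the other.

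Of the 5 members with the largest positive differences, 3 were small heat shock proteins (HSPB3, CRYAB and HSPB8), and the others were the J protein DNAJB13 and BAG3. Of the 10 small heat shock proteins, 5 were higher in SH-EP2 control cells and 1 (HSPB7, near background) was lower. The 5 include CRYAB, which prompted the choice of genes. They also include both HSPB1 and HSPBL2, whose probe may bind HSPB1 RNA, so these are not separate evidence. The shares of all symbols were 14.2% higher and 15.9% lower. HSPB3 read 8.45 and 8.42 in SH-EP2 and 3.31 and 3.61 in SH-SY5Y control cells, 31.5-fold higher (4.98, adjusted p = 3.87e-11), although its SH-SY5Y readings were close to the dimmest detected ones. CRYAB was at least 18.7-fold higher. HSPB8 read 7.67 and 7.65 against 3.87 and 5.05, a 9.21-fold difference (adjusted p = 1.04e-07) with a wide spread of its SH-SY5Y arrays (2.62 to 3.80 on the log2 scale as single arrays were left out). BAG3 read 10.41 and 10.41 against 7.19 and 7.25, 9.1-fold higher (adjusted p = 4.54e-15). With no background correction the differences shrank to 1.90 for HSPB3, 1.27 for CRYAB, 1.21 for HSPB8 and 2.49 for BAG3, all still called, so the folds of the dim genes hold for the RMA background model. On the TRPM7 shRNA arrays HSPB3, HSPB8 and BAG3 were again higher in SH-EP2 cells, by 5.03, 2.96 and 3.32, while CRYAB no longer passed (0.70, adjusted p = 0.253, with 0 of 4 arrays detected). HSPB1 was 1.81-fold higher in SH-EP2 control cells (adjusted p = 6.44e-10) and HSPBL2 3.26-fold.

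The HSP70 family held the largest differences in the other direction. HSPA1A read 2.22 and 2.09 in SH-EP2 control cells, where it was not detected, and 9.50 and 9.25 in SH-SY5Y control cells, at least 70.9-fold lower in SH-EP2 (adjusted p = 2.69e-15). Its copy HSPA1B was detected in both lines, at 8.81 and 8.996 in SH-EP2 and 10.54 and 10.55 in SH-SY5Y cells, 3.12-fold lower in SH-EP2 (adjusted p = 4.71e-11). The 2 probes thus gave different pictures of nearly the same gene, and the share of each copy in the signal is uncertain. HSPA2, an HSP70 best known from testis, was at least 8.54-fold lower (adjusted p = 2.59e-08), and HSPA1L, a relative in the same gene cluster, at least 3.64-fold lower (adjusted p = 2.19e-05). Both were undetected on every SH-EP2 array and detected on every SH-SY5Y array. With no background correction HSPA1A, HSPA2 and HSPA1L differed by -2.84, -0.78 and -0.46, still called, so these bounds too hold for the RMA model. HSPA8 did not pass (13.03 and 13.07 against 13.02 and 13.05, 95% interval of the difference -0.11 to 0.14). Of the 15 genes of this family 3 were higher (HSPA5, HSPA4 and HSPA12A), 5 lower and 7 short of the threshold. The shares of all symbols were 14.2% higher and 15.9% lower.

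The 5 listed members of the endoplasmic reticulum were all higher in SH-EP2 control cells. The list leaves out other members of this compartment. Among them, HSPA13 was lower. DNAJC1 (-0.03, adjusted p = 0.966), DNAJC10 (0.25, adjusted p = 0.0786) and DNAJB14 (0.16, adjusted p = 0.549) did not pass by their brightest probes. Of all symbols 14.2% were higher, and 60.7% of the symbols detected on all 4 control arrays passed in either direction. HSP90B1 read 12.89 and 13.01 against 12.07 and 12.04, 1.86-fold higher (adjusted p = 1.03e-09). HSPA5 read 9.47 and 9.57 against 8.80 and 8.69, 1.71-fold higher (adjusted p = 3.51e-05), and DNAJC3, a J protein that also restrains the kinase PERK, 3.4-fold (adjusted p = 0.000267). DNAJB9 was 1.57-fold and DNAJB11 1.2-fold higher (adjusted p = 0.0204 for DNAJB11). The DNAJB11 call was lost under median scaling and when SH-EP2 control replicate 2 or SH-SY5Y control replicate 1 was left out. Both calls were lost without an intensity trend in eBayes and with per-probe tests without eBayes. On the TRPM7 shRNA arrays 3 of the 5 passed. Of the 17 further genes of endoplasmic reticulum folding and the unfolded protein response, 12 were higher and 0 lower. Among the 12 were SERPINH1 (4-fold), CRELD2 (2.46-fold), HYOU1 (2.38-fold), the calcium-binding chaperone CALR (2.31-fold) and the transcription factors XBP1 and ATF4. The median difference of the 17 was 0.88, beside -0.02 over all symbols. On the TRPM7 shRNA arrays 12 of the 17 were higher too, but not all were the same genes. There ATF4 no longer passed (0.005, adjusted p = 0.979), whereas PDIA3 did (1.1, adjusted p = 0.0439). PDIA3 was undetected on every array, so its call compares readings at background.

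Both cytosolic HSP90 genes were lower in SH-EP2 control cells. HSP90AA1, the inducible HSP90, read 12.73 and 12.86 in SH-EP2 and 13.71 and 13.55 in SH-SY5Y control cells, 1.78-fold lower in SH-EP2 (adjusted p = 3.36e-09), and its other probes were lower as well, by 0.86 and 3.95. HSP90AB1 was 1.16-fold lower (adjusted p = 0.0354). This call was lost under median scaling, with no background correction and without an intensity trend in eBayes. It was also lost without either SH-EP2 control array, either SH-EP2 TRPM7 shRNA array or SH-SY5Y control replicate 1. Of other families, HSPH1 was 1.41-fold lower (adjusted p = 6.91e-05), the mitochondrial HSPD1 1.32-fold lower (adjusted p = 3.13e-05) and the heat shock factor HSF2 2.15-fold lower (adjusted p = 1.92e-06). The calls of HSPH1 and HSPD1 were lost without an intensity trend in eBayes. HSP90AB4P, a pseudogene detected in SH-SY5Y cells alone, was at least 2.13-fold lower (adjusted p = 0.0126), a call that passed in 11 of 16 alternatives (adjusted p up to 0.148). It was lost without SH-EP2 control replicate 1 (-1.26), without SH-SY5Y control replicate 1 (-1.37), and with its probes averaged. The same held without an intensity trend in eBayes and with per-probe tests without eBayes. Of the 25 cytosolic co-chaperones, 7 were higher and 10 lower, beside 14.2% higher and 15.9% lower of all symbols. Partners of HSP90 stood on both sides, with AHSA1 (-0.97) and FKBP4 (-1.07) lower and CDC37 (0.45), PPID (2.18) and UNC45A (0.73) higher, and STIP1 did not pass. The CCT genes were mixed, with CCT5 higher (0.90, adjusted p = 0.000133) and CCT2 and the copy CCT6P1 lower.

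J proteins were split, 12 higher and 10 lower of 46, beside 14.2% higher and 15.9% lower of all symbols. DNAJB13 was at least 4.19-fold higher in SH-EP2 control cells (5.12 and 5.34, against 1.74 and 1.93 where it was not detected, adjusted p = 5.9e-06, and 0.53 with no background correction) and DNAJC22 4.18-fold higher (adjusted p = 8.25e-09). DNAJC12 read 8.02 and 8.09 in SH-EP2 and 9.45 and 9.48 in SH-SY5Y control cells, 2.66-fold lower in SH-EP2 (adjusted p = 7.3e-10). DNAJB5 was 3.47-fold lower in SH-EP2 (adjusted p = 6.03e-06) and DNAJC2, a J protein of the ribosome, at least 2.86-fold lower (adjusted p = 0.00183). The DNAJC2 call was lost with per-probe tests without eBayes and without SH-SY5Y control replicate 1 (-1.36, where that bound is not reached). The DNAJC2 difference was -0.27 with no background correction. For DNAJB5 the call was lost with its probes averaged (-0.77, adjusted p = 0.173). Of the genes called after TRPM7 shRNA, DNAJC12 was thus lower in SH-EP2 control cells, the line in which it rose, and DNAJB5 and HSPA1B were higher in SH-SY5Y control cells, where they fell. HSPB1, which fell in SH-SY5Y cells, was lower there already, and for HSPA4L the lines did not pass (-0.27, adjusted p = 0.305). The differences between lines and those after TRPM7 shRNA share control arrays, so these values are set side by side and not related by a test.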

How the data were processed

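Expression was measured on 8 Illumina HumanHT-12 v4 arrays. The authors extracted bead signals in GenomeStudio (version 2011.1, per the submitters' processing notes) and deposited intensities that are not normalized, each with a detection p-value, in a single table whose symbols were used as given. The study normalized by Robust-Multi-Array and named no test. Here the RMA model removed background, arrays were quantile normalized, and log2 values of all probes, unfiltered, entered a limma 3.58.1 fit under R 4.3.3 with a mean for each of the 4 groups and an eBayes prior that followed intensity. The number of arrays limits the precision. A probe undetected on both arrays of a group gives a bound, set against the dimmest detected probe of each array or its own signal, whichever is higher. No column of the table was left unused (0 per-sample columns).

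The members, the gene lists and the naming rule were chosen with earlier results of these data known. Named are CRYAB, HSPB2, HSF1, HSF2, the heat-inducible and endoplasmic reticulum members, those past the threshold after TRPM7 shRNA or for the difference between lines, and the first 6 per direction between control groups. Other members, and the genes of the related lists, were named after their values were seen. The procedure was tested on simulated arrays. No pairing of arrays by replicate number is stated, and the main fit used none. The replicate differences of control and TRPM7 shRNA groups correlated at r = -0.00447 (SH-EP2) and -0.111 (SH-SY5Y) over 14577 probes. These values cannot decide whether the arrays were prepared in pairs.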

Additional observations from a re-analysis of the deposited data

Results flagged for a closer look

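CRYAB was marked because its response to TRPM7 shRNA differed between the lines by the test of the difference itself: -4.43 for SH-EP2 and -0.59 for SH-SY5Y, a difference of -3.84 on the log2 scale (limma, adjusted p = 0.000617). Its fall in SH-EP2 cells was known when the genes were chosen, and every SH-SY5Y array read the gene at background. The difference kept its sign in all 18 alternatives, from -4.12 to -1.17, and passed in 17 of them, with adjusted p from 3.82e-08 to 0.124. The exception was the per-probe test without eBayes.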

How the results depend on the processing

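In SH-EP2 cells 4 members passed, and the count was 7 with no background correction, 12 with each line normalized and fitted alone, 1 without an intensity trend in eBayes, 2 with a per-probe test without eBayes, and 2 to 5 with an array left out. In SH-SY5Y cells 3 passed, and the count was 5 with normexp, with no background correction and with probes detected on at least 2 arrays, 1 with median scaling and when the probes of a gene were averaged, and 0 to 3 with an array left out. It was 0 without an intensity trend (9 members at an unadjusted p under 0.05) and 0 with per-probe tests (18). For the difference between lines 1 member passed, and the count was 2 with no background correction or with probes detected on at least 2 arrays, 0 with per-probe tests (16 at an unadjusted p under 0.05), and 1 to 2 with an array left out. Between control groups 51 passed, 33 without an intensity trend, and 42 to 52 with an array left out. The median difference between the lines' responses was 0.05, and -0.0799 with median scaling. The cause of these shifts was not tested.

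With a replicate block in each line, 0 members passed in SH-SY5Y cells (16 at an unadjusted p under 0.05) and 4 in SH-EP2 cells. A crossed block, chosen after seeing the data because of the negative correlation in SH-SY5Y cells, gave 6 and 5. The count for the difference between lines stayed at 1 under both blocks, and no block was fitted for the comparison of control groups. CRYAB passed in SH-EP2 cells in all 19 alternatives, with differences from -4.65 to -1.26, and no named gene reversed a call.

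The limits are the 2 arrays per group, 1 TRPM7 shRNA, a targeted gene below detection, probes near background, and near-identical gene copies.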
